A study of Homo sapiens with 4 samples.

Results

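Short chromatin loops were examined in the melanoma cell line M14, taking every H3K27ac HiChIP loop whose anchors, each a 5 kb bin, lay 20 to 45 kb apart between their midpoints. The loop list of control cells (WT) held 7658 such loops among 27289 loops, or 28.1%, and the list of cells with STAG2 knocked down (STAG2-KD) held 7916 among 25621, or 30.9%. A loop with the same bins at both anchors in both lists was called shared, and the others WT-only or STAG2-KD-only. The 11980 distinct short loops, of 42529 distinct loops in all, then divided into 3594 shared, 4064 WT-only and 4322 STAG2-KD-only loops.

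M14 is an established human melanoma line. Both groups were the same M14 line in which doxycycline switches on a short hairpin RNA that targets STAG2, grown for 5 days without doxycycline (WT) or with it (STAG2-KD), so an effect of doxycycline itself and of the knockdown cannot be told apart, and a single line stands behind all values. The labels describe 2 samples per group, and 1 loop list per group was used here. The lists gave positions alone, without read counts or scores, so the depth behind a loop is unknown and no test between groups over replicates could be made. Each percentage below is therefore given with its exact Clopper-Pearson 95% interval, which covers counting error only. Loops of 1 list are not replicates of a condition, and numbers of chromosomes with the same order are descriptions.

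HiChIP ligates DNA fragments that touch in the folded genome and pulls down, with an antibody, the ligated pairs that carry a chosen chromatin mark. H3K27ac, acetylation of histone H3 at lysine 27, marks active promoters and enhancers, and a ligated pair can be pulled down when only 1 of its ends carries the mark. STAG2 and its paralog STAG1 are alternative subunits of cohesin, the ring complex that extrudes chromatin loops, many of which stop at sites bound by CTCF. Short loops of this kind span about the length of many genes, and they can join a promoter to an enhancer next to it, to an intronic enhancer or to the promoter of a neighbour.

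STAG2 itself lies on the X chromosome, where neither list held a loop, so the knockdown could not be checked in these files. The melanoma label was checked on the pigment cell genes. Of all autosomal protein-coding genes, 23.4% had a short loop at a transcript start in WT and 23.0% in STAG2-KD. Such loops were listed for 6 of 8 melanocytic markers in WT and 4 of 8 in STAG2-KD, among them MITF, the lineage's master regulator, with 2 and 2 loops, and SOX10, its activator, with 2 and 1. TYRP1 and DCT, which encode pigment enzymes, had 1 loop each in WT and none in STAG2-KD, and MLANA and TYR had none in either list. Of the keratinocyte markers, KRT14 had 1 loop in WT and KRT10 1 in each list, while KRT5, KRT1, TP63 and DSG3 had none. CD3E had 1 loop in STAG2-KD, and the other 5 lymphoid markers had none.

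The promoters shown here belong to genes that carried many short loops of 1 set, and to IRF9, the interferon response factor that the study followed. Each line gives the 150 bases before a transcript start, 5′ to 3′ on the gene's strand, from the GRCh37 (hg19) genome, with CpG dinucleotides in capitals. A start was used only where these bases touched no annotated exon, so it need not be the gene's main start. MYSM1 (chr1:59165763-59165912, minus strand) had 3 shared loops at this bin. PHGDH (chr1:120254975-120255124, plus strand) had 3 WT-only loops there. ST3GAL6 (chr3:98450930-98451079, plus strand) had 3 STAG2-KD-only loops there. IRF9 (chr14:24630737-24630886, plus strand) had 1 STAG2-KD-only loop there, beside 1 shared loop.
MYSM1: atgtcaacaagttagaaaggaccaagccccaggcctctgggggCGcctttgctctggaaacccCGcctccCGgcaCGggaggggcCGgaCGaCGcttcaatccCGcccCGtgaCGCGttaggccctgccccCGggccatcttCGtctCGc
PHGDH: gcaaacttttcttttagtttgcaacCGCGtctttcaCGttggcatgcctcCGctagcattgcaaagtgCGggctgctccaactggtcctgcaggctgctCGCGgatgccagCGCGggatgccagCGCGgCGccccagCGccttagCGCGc
ST3GAL6: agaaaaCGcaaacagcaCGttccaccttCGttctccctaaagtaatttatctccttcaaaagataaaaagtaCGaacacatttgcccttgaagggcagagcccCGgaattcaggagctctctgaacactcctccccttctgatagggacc
IRF9: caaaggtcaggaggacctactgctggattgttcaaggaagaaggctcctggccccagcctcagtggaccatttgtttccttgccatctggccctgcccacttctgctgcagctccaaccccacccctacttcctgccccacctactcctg
The MYSM1 and PHGDH stretches held 14 and 15 CpG, the ST3GAL6 stretch 5 and the IRF9 stretch 0. GC content ran from 46.7% for ST3GAL6 to 67.3% for MYSM1, with 58.7% for IRF9 and 62.7% for PHGDH. None of the 4 stretches held the CTCF, AP-1, M-box, YY1 or NRF1 letters searched below, which says only that those letters are not in these windows.

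The next sequences are AP-1 words, TGACTCA, found in anchors of short loops from 3 loci described below. They are shown, a choice made after the values were seen, because of the words searched this one differed most between WT-only and STAG2-KD-only anchors. AP-1 is the dimer of FOS and JUN proteins that binds many enhancers. Each line gives 29 bases of GRCh37, 5′ to 3′ on the strand named, with the word in capitals. In FRMD4B, shared loops joined the bin of the left word (chr3:69511726-69511754, plus strand) to that of the middle word (chr3:69536101-69536129, minus strand), and this bin to that of the right word (chr3:69556553-69556581, minus strand).
FRMD4B left: agacaggatctTGACTCAtgcattctggc
FRMD4B middle: aaggaatatagTGACTCAaacaagagacc
FRMD4B right: tatatatactgTGACTCAaaactgaaaca
In the BCAR3 locus, WT-only loops joined the bin of a word in FNBP1L (chr1:94016236-94016264, plus strand) to a word in BCAR3 (chr1:94045661-94045689, minus strand), and that bin to another in BCAR3 (chr1:94080304-94080332, plus strand).
FNBP1L: taatgtcactgTGACTCAgttaacttcat
BCAR3 first: aacttgagggaTGACTCAgaaaccagagt
BCAR3 second: gtacccacttcTGACTCAactgtttgtcc
In the NFATC2 locus, 1 STAG2-KD-only loop joined a word in a bin outside NFATC2 that touched no protein-coding gene (chr20:49982197-49982225, minus strand) to a word in a bin with an NFATC2 transcript start (chr20:50018271-50018299, minus strand), and another joined words inside the gene (chr20:50087804-50087832, minus strand, and chr20:50112190-50112218, plus strand).
NFATC2 outside: gattgtcaaggTGACTCActaaacttaca
NFATC2 start bin: gatcagtgggaTGACTCAccagtttatgc
NFATC2 body first: tttctggcaaaTGACTCAtgttccaggat
NFATC2 body second: ccaaggaaaatTGACTCActccctcttac
These 10 anchors held 1 to 5 such words each, the most in the bin outside NFATC2. The word itself is common, and WT-only loops carry it as well.

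How far the lists agreed on short loops was asked first. Short loops were found in both lists more often than longer ones. Of the WT short loops, 46.9% (45.8 to 48.1) were shared, against 34.6% (33.9 to 35.2) of WT loops of 50 kb or more. Of the STAG2-KD short loops, 45.4% (44.3 to 46.5) were shared, against 38.3% (37.6 to 39.1). The shared percentage was higher for short loops on 22 of 22 autosomes in each list. The gap was 12.4 points in WT and 7.07 in STAG2-KD, and without the 20 kb loops it was 7.43 and 4.00 points. WT-only loops made up 53.1% of the WT short loops, where they made up 62.0% of WT loops of all distances, and STAG2-KD-only loops made up 54.6% of the STAG2-KD short loops, beside 59.5% at all distances.

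Short loops took a larger part of the STAG2-KD list than of the WT list on 22 of 22 autosomes, although the STAG2-KD list was the smaller. The number of STAG2-KD short loops exceeded that of WT on 16 of 22. Among loops private to 1 list, 51.5% (50.5 to 52.6) of the short ones were STAG2-KD-only, against 45.9% (45.3 to 46.6) of those of 50 kb or more.

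The excess lay at the shortest distance in the lists. At 20 kb WT had 2594 loops and STAG2-KD 2892, made up of 1467 shared, 1127 WT-only and 1425 STAG2-KD-only, so 55.8% (53.9 to 57.8) of the private loops were STAG2-KD-only. From 25 to 45 kb the lists held 5064 and 5024 loops, and 49.7% (48.4 to 50.9) of the private loops were STAG2-KD-only. The percentage was 51.1 at 25 kb, 52.3 at 30 kb, 49.7 at 35 kb, 48.0 at 40 kb and 46.4 (43.3 to 49.5) at 45 kb. At 50 kb, the first step outside the range, it was 48.9 (45.7 to 52.2). The numbers of loops at this border were alike, with 860 WT and 787 STAG2-KD loops at 45 kb against 800 and 780 at 50 kb.

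Sharing was also highest at 20 kb. The shared part there was 56.6% in WT and 50.7% in STAG2-KD, against 37.2% and 40.7% at 45 kb and 39.9% and 40.9% at 50 kb. Loops of 20 kb made up 40.8% of the shared short loops, 27.7% of the WT-only and 33.0% of the STAG2-KD-only ones.

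**Figure D1:**
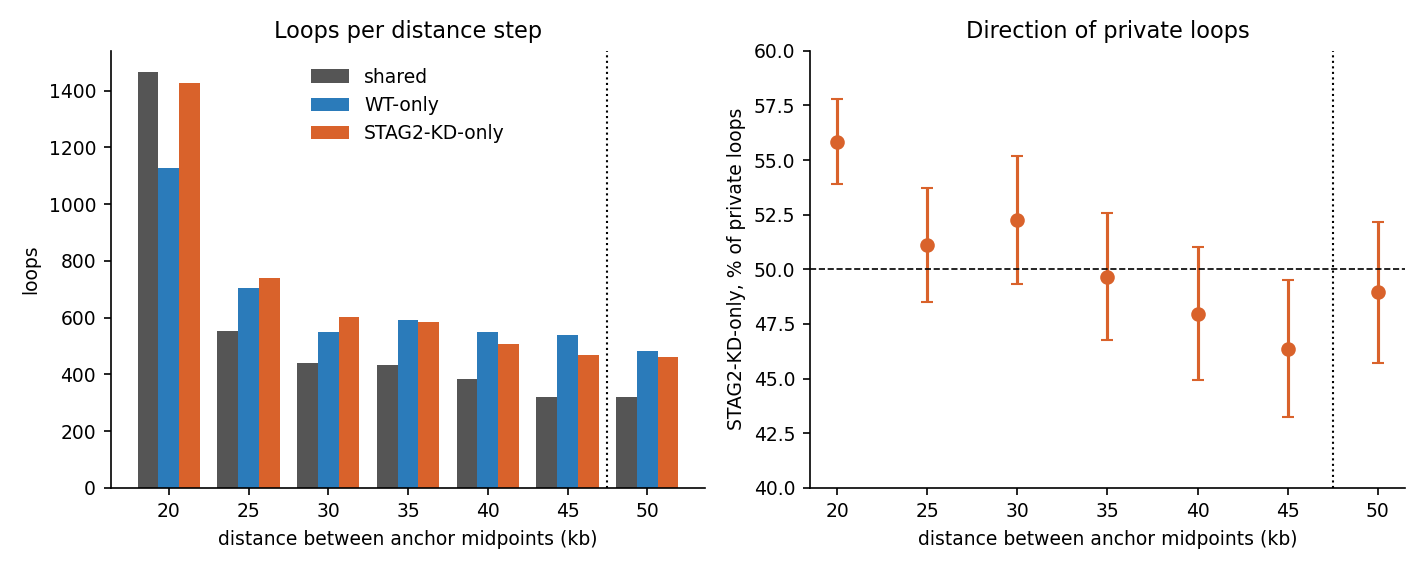
Left, number of loops at each anchor distance in kb, for shared, WT-only and STAG2-KD-only loops, with a dotted line between 45 and 50 kb, where the short class ends. Right, STAG2-KD-only loops as a percentage of all private loops at each distance, with exact 95% intervals on an axis cut to 40 to 60% and a dashed line at 50%: the 20 kb step sits at 55.8% and the 45 kb step at 46.4%.

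Promoters were then counted at the anchors, taking as a promoter any annotated transcript start within the 5 kb anchor. Shared short loops joined promoters to promoters more often than private ones. Both anchors held a start in 30.4% of shared, 21.8% of WT-only and 20.5% of the STAG2-KD-only short loops. A start at 1 anchor was found in 38.1%, 39.96% and 40.5%, and at neither in 31.5%, 38.2% and 39.1%. The share with starts at both was higher in shared than in WT-only loops on 20 of 22 autosomes, and likewise higher than in STAG2-KD-only loops on 20 of 22.

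Read the other way, 55.2% (53.0 to 57.4) of WT short loops with starts at both anchors were shared, against 45.7% of those with 1 and 42.1% of those with none. The STAG2-KD values were 55.3%, 43.9% and 40.1%. Longer loops showed the same order at a lower level, with 40.9%, 34.8% and 29.7% in WT. Starts at both anchors were about as common in short as in longer loops, at 25.9% against 24.8% in WT, with short loops higher on 11 of 22 autosomes, and at 24.99% against 24.98% in STAG2-KD. Loops with a start at neither anchor were 35.05% of short and 34.15% of longer loops in WT, with intervals that overlap, and 35.6% (34.6 to 36.7) against 32.6% (31.9 to 33.3) in STAG2-KD. The percentage with no start was higher in short loops on 17 of 22 autosomes in WT and 15 of 22 in STAG2-KD.

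Short loops between promoters joined genes read in the same direction more often than longer loops did. The share among all gene pairs at these distances, looped or not, was not counted, so a preference of the loops was not tested. Where each anchor held the start of 1 protein-coding gene and the genes differed, 67.6% (64.7 to 70.4) of 1087 WT short loops joined genes on the same strand, against 55.7% (53.7 to 57.6) of 2530 longer loops. In STAG2-KD the values were 70.02% (67.2 to 72.7) and 55.4% (53.3 to 57.4). Same-direction pairs made up 68.1% (64.2 to 71.9) of shared, 67% (62.7 to 71.1) of WT-only and 72.2% (68.1 to 76.1) of the STAG2-KD-only short loops, with intervals that overlap.

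Contacts within genes came next, over protein-coding genes. Short loops lay inside 1 gene far more often than longer loops. Both anchors fell in the same gene, its start included, in 42.5% of WT and 44.4% of STAG2-KD short loops, against 19.1% and 18.0% of loops of 50 kb or more. A short loop fits within more genes than a longer one, and 79.0% of WT short loops had no transcript start of a protein-coding gene between their anchors, against 44.7% of the longer ones.

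Shared loops held most contacts between genes, and STAG2-KD-only loops most contacts within a gene. Loops that joined starts of different genes were 20.8% (19.4 to 22.1) of shared, 14.1% (13.1 to 15.3) of WT-only and 11.7% (10.8 to 12.7) of the STAG2-KD-only short loops. Loops with both anchors in 1 gene, start included, were 41.4%, 43.6% (42.0 to 45.1) and 46.8% (45.3 to 48.3). Loops between separate starts of 1 gene were 3.48% of shared, 2.49% (2.03 to 3.01) of WT-only and 3.56% (3.03 to 4.16) of the STAG2-KD-only loops. Without the 20 kb loops, WT-only and STAG2-KD-only loops were closer. Starts of different genes were then joined by 14.9% and 12.9%, and both anchors lay in 1 gene in 40.8% and 43.2%. In each of these comparisons the intervals overlap.

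As parts of the private loops, STAG2-KD-only loops were 60.4% (54.1 to 66.4) of those between separate starts of 1 gene. They were 53.3% (51.1 to 55.5) of those inside 1 gene body away from its starts, and 46.9% (43.9 to 49.9) of those joining starts of different genes. Over all private short loops the part was 51.5%, which lies within the interval for 1 gene body. Among private loops of 50 kb or more the same classes had 42.3%, 44.1% and 45.5%, against 45.9% over all, so the order was not kept there. Loops from a start into the body or end of the same gene differed little between sets, at 17.5% of shared, 18.1% of WT-only and 18.6% of the STAG2-KD-only loops. Neither anchor touched a protein-coding gene in 13.6%, 17.3% and 16.6%.

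**Figure D2:**
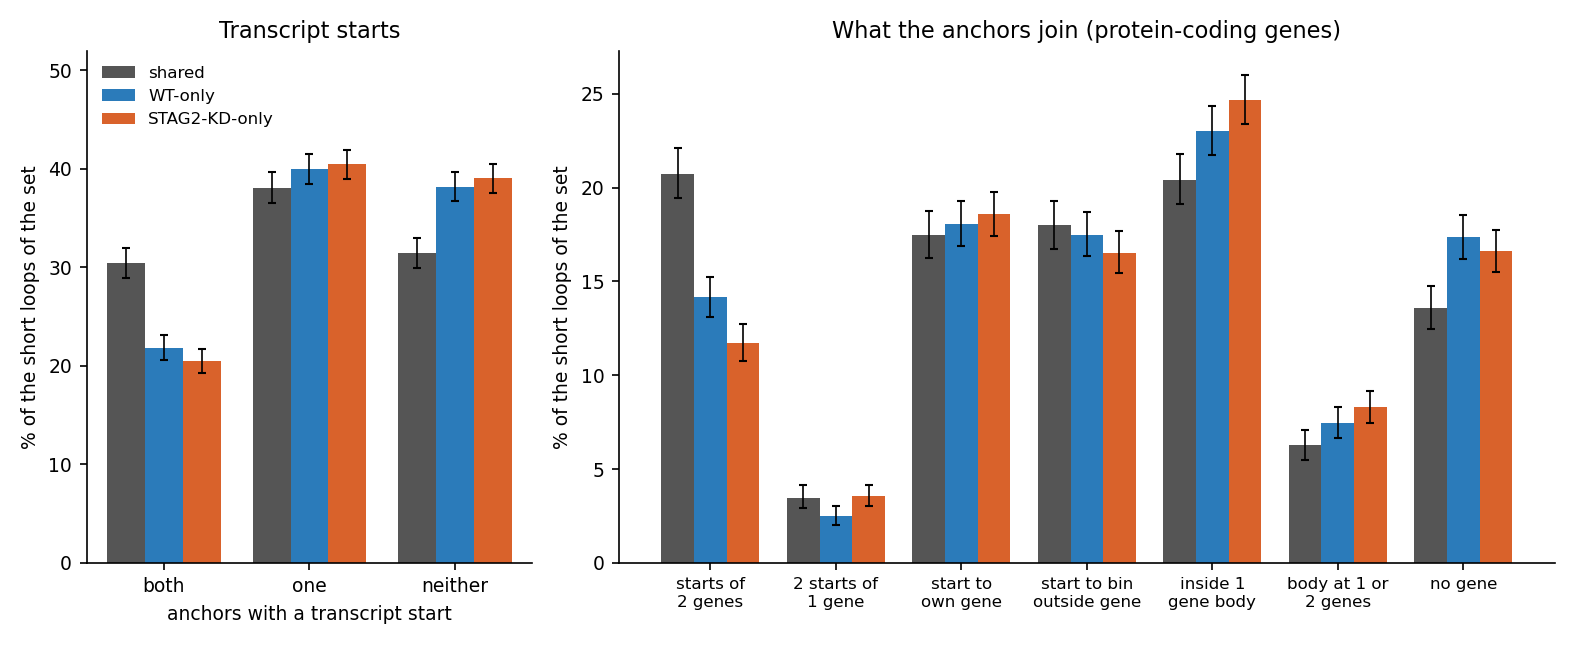
Percentage of shared, WT-only and STAG2-KD-only short loops with a transcript start at both, 1 or neither anchor (left) and in each class of contact over protein-coding genes (right), with exact 95% intervals as error bars. Shared loops stand highest for starts of different genes (20.8%), and STAG2-KD-only loops for both anchors inside 1 gene body (24.7%, against 20.4% of shared loops).

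The genes with the most shared short loops at a start were MYSM1, CTNND1 and ERCC1. MYSM1, a deubiquitinase of histone H2A, spans chr1:59109112-59165762 and had 5 shared and 1 WT-only loops. Of the shared loops, 2 joined start bins of the gene (20 kb each), 1 ran 30 kb inside it, and 2 reached past its 5′ end to bins 25 and 35 kb away. CTNND1, which encodes p120-catenin of cell junctions, spans chr11:57520715-57587018 and had 5 shared and 1 STAG2-KD-only loops, including loops to the neighbour SELENOH. ERCC1, a DNA excision repair gene at chr19:45910592-45982086, had 5 loops, all shared. These genes were chosen for their shared loops, so the many loops common to both lists follow from the choice.

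ABR, a regulator of small GTPases, had 4 shared, 2 WT-only and 4 STAG2-KD-only loops. ST3GAL6, a sialyltransferase gene at chr3:98451080-98540045, had 4 shared and 5 STAG2-KD-only loops and no WT-only loop, 4 in WT against 9 in STAG2-KD. Of the 5, 3 met at the start bin printed above and 2 joined internal starts of ST3GAL6 to the start of its neighbour DCBLD2, as in the 45 kb loop at chr3:98485001-98535000. Its paralog ST3GAL4, on chromosome 11, had 3 shared, 4 WT-only and 3 STAG2-KD-only loops, 7 in WT and 6 in STAG2-KD.

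WT-only loops at starts were most numerous at MTUS1, a tumour suppressor candidate that encodes a microtubule protein, with 3 shared and 5 WT-only loops, 8 in WT against 3 in STAG2-KD. PHGDH, the first enzyme of serine synthesis and a gene amplified in some melanomas, had 1 shared, 5 WT-only and 1 STAG2-KD-only loops, 6 in WT against 2 in STAG2-KD. Its WT-only loops ran between chr1:120160001 and chr1:120290000, and 2 of them used a bin that also holds a start of ZNF697, so they count for both genes. TEX2 had no shared loop, 4 WT-only and 3 STAG2-KD-only ones, and LDLRAD4 had 1 shared, 4 WT-only and 2 STAG2-KD-only loops.

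Besides ST3GAL6, STAG2-KD-only loops at starts were most numerous at NEK6 and RASSF8. NEK6, a kinase of mitosis, had 2 shared, 2 WT-only and 5 STAG2-KD-only loops, 4 in WT against 7 in STAG2-KD. RASSF8, a member of the RAS association domain family at chr12:26111165-26232825, had 1 shared and 5 STAG2-KD-only loops, 1 in WT against 6 in STAG2-KD. These 6 loops all lay between chr12:26110001 and chr12:26185000 and joined RASSF8 starts to each other or to its own introns and exons. SEPTIN9, a cytoskeletal GTPase, had 2 shared, 3 WT-only and 4 STAG2-KD-only loops. All of these genes were chosen for their counts, which are descriptions.

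Among gene bodies, MAML2 and MAML3, coactivators of Notch, held the most shared loops. Counting loops with both anchors in the gene, MAML2 had 10 shared, 10 WT-only and 3 STAG2-KD-only loops, 20 in WT and 13 in STAG2-KD, and MAML3 had 9, 5 and 4. RASSF3 had 9 shared, 2 WT-only and no STAG2-KD-only loops. MAML2 (chr11:95709762-96076359) and MAML3 (chr4:140637907-141075338) are long genes, and a longer gene has room for more loops.

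In the WT-only set, JARID2, a partner of the Polycomb complex PRC2, had 2 shared, 8 WT-only and 4 STAG2-KD-only loops, 10 in WT against 6 in STAG2-KD. BCAR3, an adaptor of integrin signalling, had 3 shared, 8 WT-only and no STAG2-KD-only loops, 11 against 3. In the STAG2-KD-only set, EXT1, a heparan sulfate polymerase, had 3 shared, 3 WT-only and 9 STAG2-KD-only loops, 6 in WT against 12 in STAG2-KD. RERE, a transcriptional corepressor, had 3, 4 and 8, or 7 against 11. NFATC2, a calcium-regulated transcription factor, had 3, 2 and 8, or 5 against 11. Loops inside a single gene thus differed between lists in either direction.

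Most anchors carried 1 short loop: the 11745 WT anchors averaged 1.30 loops (SD 0.583) and the 12142 STAG2-KD anchors 1.30 (SD 0.589), with at most 5. The anchors with 4 shared loops that ranked highest lay in MAML3 (chr4:140735001-140740000), in LGR4, an R-spondin receptor gene (chr11:27450001-27455000), and at the CTNND1 start (chr11:57545001-57550000).

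The highest WT-only anchor lay in no protein-coding gene, at chr6:108320001-108325000, and had 5 WT-only loops and none in STAG2-KD. EVA1A followed with 4 WT-only and 1 STAG2-KD-only loops (chr2:75740001-75745000), and PHC2, a Polycomb gene, with 3 WT-only, 1 shared and 1 STAG2-KD-only (chr1:33810001-33815000). Among STAG2-KD-only anchors, a bin in DNMT1, the maintenance DNA methyltransferase, and S1PR2 (chr19:10335001-10340000) had 4 STAG2-KD-only loops and 1 WT-only loop. Bins in SPTSSB (chr3:161065001-161070000) and in no protein-coding gene (chr15:75440001-75445000) had 4 STAG2-KD-only loops each and none in WT.

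Local gene density was measured as the number of protein-coding gene starts within 250 kb on each side of a loop's midpoint. By this measure short loops had denser surroundings than longer ones, and shared short loops the densest. The window holds both anchors of a short loop but misses the anchors of loops well over 500 kb. Short and longer loops are therefore not measured alike, while the short sets are. The median was 5 starts for short loops in both lists, against 4 for loops of 50 kb or more, with WT means of 7.73 (SD 7.53) and 6.54 (SD 7.22). The WT median was higher for short loops on 17 autosomes and lower on 2. In STAG2-KD the means were 7.59 (SD 7.31) and 6.83 (SD 7.34), and the median was higher on 13 autosomes and lower on 2. By set, short and longer means were 8.38 and 7.04 for shared, 7.15 and 6.28 for WT-only, and 6.93 and 6.70 for STAG2-KD-only loops. Shared short loops had a median of 6 and each private set 5.

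Sharing was higher in denser surroundings. Of WT short loops with no gene start in the window, 40.6% (35.5 to 45.9) were shared, then 43.0% with 1 to 4 starts, 47.6% with 5 to 9, 51.6% with 10 to 19 and 55.1% (51.5 to 58.8) with 20 or more. In STAG2-KD the values were 41.5% (36.3 to 46.9), 41.0%, 46.1%, 48.7% and 58.0% (54.2 to 61.6). The part of the WT list that was short also went from 17.9% in windows with no start to 33.4% in windows with 20 or more, and that of the STAG2-KD list from 21.4% to 34.0%. The limit of the midpoint window for longer loops applies to these parts too. The part of private short loops that was STAG2-KD-only showed no such order, at 49.1%, 52.1%, 51.5%, 52.9% and 47.1% (43.2 to 51.1) from the lowest class to the highest. Chromosomes with more genes had more short loops, with Pearson's r of 0.909 and Spearman's rho of 0.868 over 22 autosomes in WT and 0.899 and 0.855 in STAG2-KD, points that come from 1 list and differ in chromosome length.

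**Figure D3:**
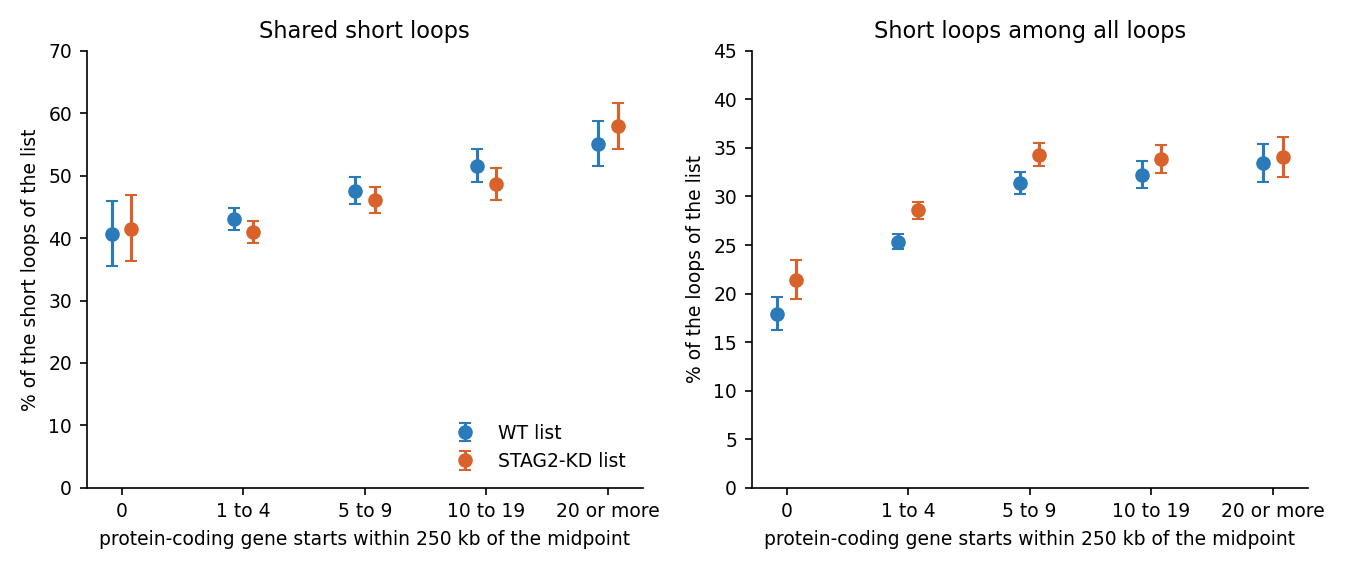
Percentage of short loops that are shared (left) and percentage of all loops that are short (right), in the WT and STAG2-KD lists, by the number of protein-coding gene starts within 250 kb of the midpoint, with exact 95% intervals. The shared percentage runs from 40.6 to 55.1 in WT and from 41.5 to 58.0 in STAG2-KD, and the short percentage from 17.9 to 33.4 and from 21.4 to 34.0.

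The autosomes were then cut into windows of 500 kb, of which 2698 held the midpoint of a short loop. More STAG2-KD than WT short loops were listed in 1097 windows, more WT in 991 and equal numbers in 610, and 76 windows differed by 5 or more loops. The windows named here were chosen for these counts.

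The window of FRMD4B and MITF at chr3:69500001-70000000 held the most shared short loops, 12, beside 7 WT-only and 3 STAG2-KD-only. Both MITF loops at a transcript start were shared (chr3:69810001-69840000 and chr3:69810001-69855000), and with both anchors in the gene MITF had 8 shared, 5 WT-only and 1 STAG2-KD-only loops, 13 in WT against 9 in STAG2-KD. FRMD4B loops of this window included the shared ones whose AP-1 words are printed above. Of the 22 loops, 17 had no transcript start at either anchor.

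The window of SREBF1, the regulator of lipid synthesis, and RAI1 at chr17:17500001-18000000 had 12 shared, 3 WT-only and 3 STAG2-KD-only loops. A histone gene cluster at chr6:26000001-26500000 had 11 shared, 9 WT-only and 14 STAG2-KD-only loops, 20 in WT against 25 in STAG2-KD, and starts at both anchors in 20 of these 34 loops. The window of AHNAK and its gene-dense neighbours at chr11:62000001-62500000 had 6 shared, 12 WT-only and 5 STAG2-KD-only loops, of which 8 of the 12 WT-only loops joined promoters, for example GANAB to UBXN1 and AHNAK to MTA2.

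The window of PHLDA1 and NAP1L1 at chr12:76000001-76500000 had 5 shared, 11 WT-only and 12 STAG2-KD-only loops, and no loop there had transcript starts at both anchors. The lists thus held nearly equal numbers there, 16 and 17, with few loops in common.

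The largest STAG2-KD excess was around NFATC2 and ATP9A at chr20:50000001-50500000, with 4 shared, 3 WT-only and 13 STAG2-KD-only loops, 7 in WT against 17 in STAG2-KD. All 3 loops from NFATC2 starts were STAG2-KD-only, and 10 of the 13 STAG2-KD-only loops had no start at either anchor. Around THRAP3 and STK40 at chr1:36500001-37000000, 6 loops were shared, 3 WT-only and 12 STAG2-KD-only, 9 against 18. Around CALD1, the gene of the actin-binding protein caldesmon, at chr7:134000001-134500000, 1 loop was shared, 1 WT-only and 10 STAG2-KD-only, 2 against 11.

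The largest deficit lay around BCAR3 at chr1:94000001-94500000, with 3 shared, 9 WT-only and no STAG2-KD-only loops, 12 in WT against 3 in STAG2-KD. Of the WT-only loops, 8 had no transcript start at either anchor and 7 lay inside 1 gene body away from its starts. At chr17:79500001-80000000 the counts were 5 shared, 9 WT-only and 1 STAG2-KD-only, 14 against 6, and there 7 of the 9 WT-only loops joined promoters, such as PCYT2 to MAFG and SIRT7 to PYCR1. Around PIK3CD, CLSTN1 and CTNNBIP1 at chr1:9500001-10000000 the counts were 3, 8 and 0, or 11 against 3. Windows with fewer STAG2-KD loops thus included one made of loops inside a gene and one made of promoter pairs.

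**Figure D4:**
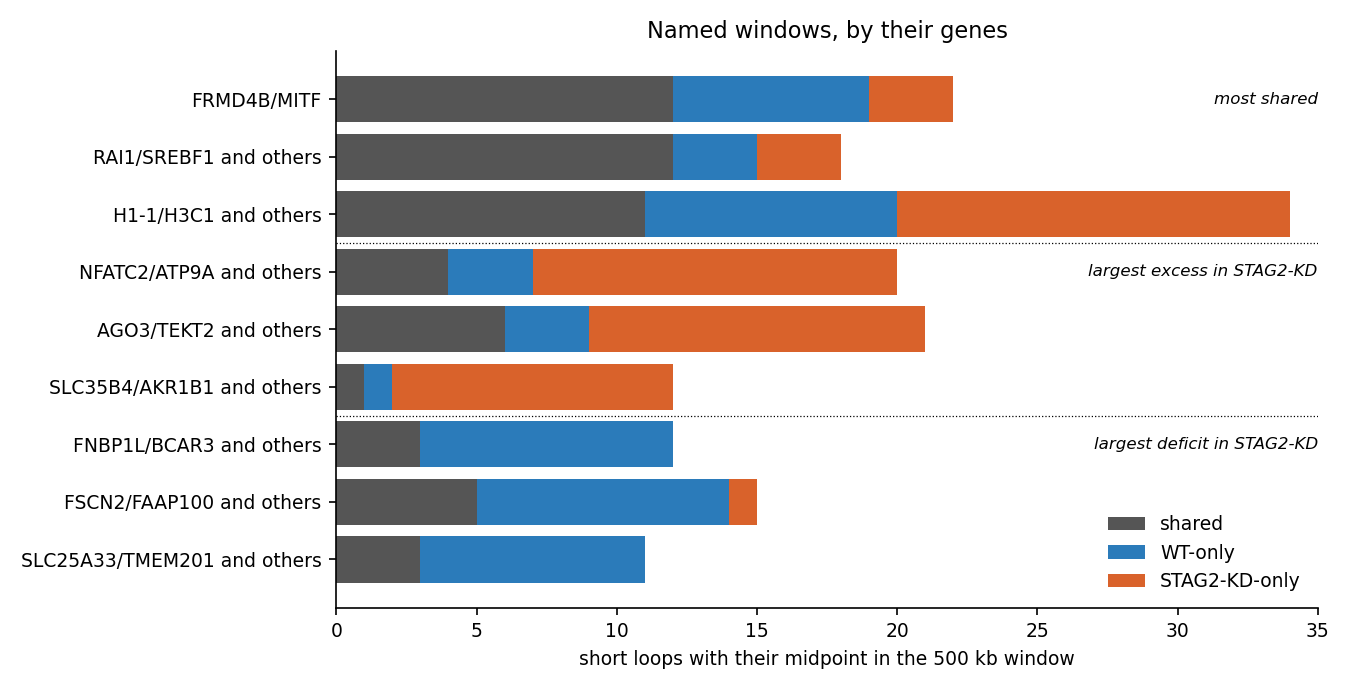
Number of shared, WT-only and STAG2-KD-only short loops in 9 windows of 500 kb, the 3 with the most shared loops, the 3 with the largest STAG2-KD excess and the 3 with the largest deficit, each labelled by its leftmost genes (the AGO3 label is the THRAP3 and STK40 window, SLC35B4 that of CALD1, and SLC25A33 that of PIK3CD). The NFATC2 window has 13 STAG2-KD-only against 3 WT-only loops, and the BCAR3 window 9 WT-only and no STAG2-KD-only loops.

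Gene lists were read against all 19229 autosomal protein-coding genes, of which 23.4% had a short loop at a transcript start in WT and 23.0% in STAG2-KD. Loops in 1 list alone were common over all genes. Of 5682 genes with a short loop in either list, 1250 had it in WT alone and 1181 in STAG2-KD alone. The melanocyte, interferon, immediate early, matrix, ribosomal and histone lists stood above these values, and olfactory receptor genes, which serve smell in nasal neurons, had no short loop at any of 413 members. Melanocyte lineage genes had one in 14 of 23 in WT and 13 of 23 in STAG2-KD. RAB27A, which moves melanosomes, had 3 loops in WT and 4 in STAG2-KD, and ERBB3 had 3 and 2. TFAP2A and S100B had 2 and 1 each. DCT, SLC45A2 and TYRP1 had a loop in WT alone, and MC1R (2 loops) and S100A1 in STAG2-KD alone. The MC1R loops used a bin that also holds a TUBB3 start.

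Of the type I interferon pathway, the response the study followed, 19 of 40 genes had a short loop at a start in WT and 18 of 40 in STAG2-KD, with 24 loops in WT and 29 in STAG2-KD. IRF9, the DNA-binding subunit of the ISGF3 complex, had 1 loop in WT and 2 in STAG2-KD. The shared IRF9 loop joined it to the starts of EMC9 and PSME2 (chr14:24610001-24635000, 20 kb), and the STAG2-KD-only loop joined it to the start of IPO4 on the other side (chr14:24630001-24660000, 25 kb). The study reported a new loop from the IRF9 promoter to a distal enhancer after knockdown. Whether the IPO4 loop is that loop was not examined here. Of the ISGF3 partners of IRF9, STAT2 had 2 and 1 loops, and of the pathway's receptor and kinase genes IFNAR2 and TYK2 had 1 and 1 each.

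IRF1, another interferon response factor, had 1 WT loop and 3 STAG2-KD loops. The shared one was chr5:131790001-131835000. OAS2, of the antiviral oligoadenylate synthetases, had 2 and 4, and OAS1 and OAS3 were joined by a STAG2-KD-only loop (chr12:113340001-113380000). IFIT3 had 2 and 2. IFI6 had 1 and 2, and IFI44, joined to IFI44L by a STAG2-KD-only loop (chr1:79085001-79120000), had 0 and 2. IFITM3 had 0 and 2 loops as well. On the other side, ISG15, IFIT5, IRF7, ISG20 and SOCS3 had 1 loop each in WT and none in STAG2-KD. Of 23 genes of this list with a short loop in either list, 5 had it in WT alone and 4 in STAG2-KD alone. Over all genes these numbers were 1250 and 1181 of 5682, so differences both ways are not particular to this list. OAS genes that share a loop count it more than once.

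Of 12 cohesin and CTCF genes, 2 had a short loop at a start in each list, or 16.7%, beside 23.4% and 23.0% of all genes. They were CDCA5 (sororin, which stabilizes cohesin on chromatin) with 2 shared loops and STAG1 with 1 and 1. The STAG1 loops differed, with a WT-only loop of 35 kb at chr3:136470001-136510000 and a STAG2-KD-only loop of 20 kb at chr3:136450001-136475000. Of immediate early and ERK feedback genes, 14 of 34 had a short loop in each list, including DUSP6, the ERK phosphatase (3 and 2), IER2 (2 and 3), SPRY4 (3 and 2), and FOSL1, a subunit of AP-1 (2 and 2). ETV5 (2 loops) and SPRY2 had loops in WT alone, and SPRED2 (2 loops) and CCN1 in STAG2-KD alone.

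Extracellular matrix and adhesion genes had a short loop in 12 of 35 in WT and 13 of 35 in STAG2-KD. They had 25 and 30 loops, beside 6639 and 6602 over all protein-coding genes. CD44, the hyaluronan receptor, had 5 and 5, of which 2 were shared, and the integrin subunit ITGB1 had 4 and 4, all shared. LAMC1, a laminin chain, had 2 and 5, with 2 of the added loops running into the gene from its first start bin (chr1:182990001-183015000 and chr1:182990001-183030000), and TNC had 2 and 3. ITGB5 had 3 STAG2-KD-only loops and none in WT, and ITGA5, COL5A2 and LAMB1 also had loops in STAG2-KD alone, while TIMP2, MMP14 and ITGA2 had them in WT alone.

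Ribosomal protein genes had a short loop in 33 of 79 in each list, with 8 genes in WT alone and 8 in STAG2-KD alone. RPL27 and RPL28 had 3 and 3 loops each, RPS29 had 2 and 3, and RPS27L, a paralog, had 3 and 4. Replication-dependent histone genes, which share bins and so loops, had one in 30 of 64 in WT and 34 of 64 in STAG2-KD, among them H3C8 (3 and 4), H2BC10 (3 and 4), H2BC6 (4 and 2) and H2AC8 (2 and 4). H1-1, H2AC17 and H2BC17 had loops in WT alone and 7 histone genes in STAG2-KD alone.

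Zinc finger genes of chromosome 19, many of them repressors of transposable elements, had a short loop in 57 of 246 in WT and 52 of 246 in STAG2-KD. These shares, 23.2% and 21.1%, were near the background of all genes. ZNF865 had 2 and 3 loops, and ZNF784, ZNF787 and ZNF460 had 2 and 2 each. HOX genes had one in 8 of 39 and 9 of 39, or 20.5% and 23.1%, also near the background of all genes. All named members were of the HOXC cluster: HOXC4 with 4 and 5, HOXC5, HOXC6 and HOXC10 with 1 and 1 each, and HOXC9 in STAG2-KD alone.

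Most private short loops had 1 anchor that the other list also used and 1 that it did not, 54.5% (53.0 to 56.1) of WT-only and 53.9% (52.4 to 55.4) of the STAG2-KD-only ones. At least 1 anchor served some loop of any distance in the other list for all but 15.1% (14 to 16.3) of WT-only and 18.4% (17.3 to 19.6) of the STAG2-KD-only short loops. For loops of 50 kb or more, 6.85% and 6.62% had neither anchor in the other list. Both anchors were in the other list for 30.3% (28.9 to 31.8) of WT-only and 27.6% (26.3 to 29) of the STAG2-KD-only short loops. A loop with each anchor within 1 bin was in the other list for 10.9% and 10.4%. A longer loop from 1 of the same anchors in the same direction was in the other list for 65.2% of WT-only and 64.7% of the STAG2-KD-only short loops. For private loops of 50 kb or more these values were nearly as high, at 60.5% and 60.7%. A shorter loop was there for 20.1% and 17.3% of the short ones, and loops of 20 kb can have none.

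The sequence of the anchors was read last, in 5 kb bins of GRCh37, on both strands, beside all 536654 autosomal bins without unknown bases. The letters searched were CNAGGGGGC for the CTCF core, TGACTCA for AP-1, TCACGTGA for the M-box that MITF and related factors bind, AAGATGGCG for YY1 and GCGCATGCG for NRF1, and no word contains another. The anchors of shared short loops were compared with bins that, among short loops, served WT-only loops alone or STAG2-KD-only loops alone. Loops of 50 kb or more were not considered in this split, so such bins could still anchor longer loops of either list. The median GC content was 45.9% for shared, 44.5% for WT-only and, lowest of these, 43.8% for STAG2-KD-only anchors, against 39.9% over all bins, and the median number of CpG was 73, 61 and 57, against 39. MboI, the enzyme that cut the chromatin (site GATC), had a median of 14 sites in each of these 3 groups and 12 over all bins.

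CTCF core letters were in 16.1% (15.2 to 17.1) of shared, 14% (13 to 15) of WT-only and 11.9% (11 to 12.8) of the STAG2-KD-only anchors, against 8.00% of all bins. Without the 20 kb loops, WT-only and STAG2-KD-only anchors were closer, at 13.8% (12.8 to 15) and 12.6% (11.5 to 13.6), with intervals that overlap. In anchors without a transcript start the values were 10.0%, 10.0% and 8.97%, and with a start 22.5%, 20.4% and 16.9%. Core letters at both anchors were rare, in 3.56% of shared, 2.98% of WT-only and 2.43% of the STAG2-KD-only short loops. Where both anchors held them in 1 direction each, they pointed towards each other in 27 of 101 shared, 24 of 98 WT-only and 30 of the 88 STAG2-KD-only loops, or 26.7%, 24.5% and 34.1% with wide intervals (18.4 to 36.5, 16.4 to 34.2 and 24.3 to 45). M-box letters were in 4.79%, 4.22% and 3.61% of anchors (2.64% of all bins). YY1 letters were in 4.54%, 3.30% and 3.11% (1.72%), and NRF1 letters in 2.63%, 1.51% and 1.47% (0.383%). Over all anchors these words followed the order of GC content and of transcript starts. In anchors without a start, M-box letters kept it, at 4.01%, 3.70% and 2.93%. YY1 letters did not, at 1.63%, 1.70% and 1.98%, nor did NRF1 letters, at 0.359%, 0.305% and 0.519%. For YY1 and NRF1 the intervals there overlap.

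AP-1 letters had another order, highest in STAG2-KD-only anchors. They were in 61.3% (60.1 to 62.5) of shared, 57.7% (56.3 to 59.1) of WT-only and 65.6% (64.3 to 66.9) of the STAG2-KD-only anchors, against 54.1% of all bins. In anchors without a transcript start the values were 67.5%, 61.1% (59.3 to 62.8) and 69.3% (67.7 to 70.9), with a mean of 1.14, 0.966 and 1.21 words per anchor and 0.808 over start-free bins. The STAG2-KD-only value exceeded the WT-only one on 21 of 22 autosomes. It did so too within each range of GC content, at 66.6% against 57.2% below 40% GC, 70.1% against 62.2% at 40 to 45%, 71.4% against 65.0% at 45 to 50%, and 70.3% against 60.4% above.

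Per loop, both anchors held AP-1 letters in 38.4% (36.8 to 40.01) of shared, 34.4% (32.9 to 35.9) of WT-only and 42.8% (41.3 to 44.3) of the STAG2-KD-only short loops, higher in STAG2-KD-only than in WT-only loops on 21 of 22 autosomes. The same letters in reverse order, ACTCAGT, which have the same base composition, were at both anchors in 26.4%, 26.4% and 26.3%. Loops of 50 kb or more had the same order, with 40.5% (39.4 to 41.7) of shared, 36.4% (35.6 to 37.2) of WT-only and 44% (43.1 to 45) of the STAG2-KD-only loops, so the pattern was not particular to short loops. A match is a run of letters and says nothing of whether a factor was bound.

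**Figure D5:**
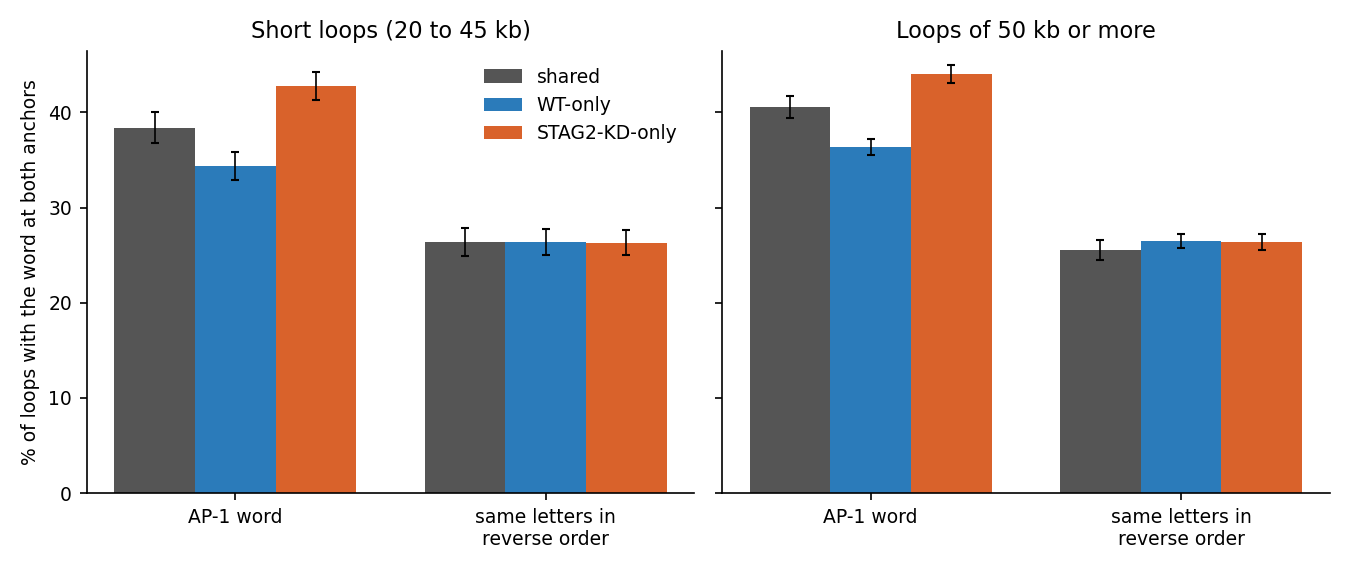
Percentage of shared, WT-only and STAG2-KD-only loops with the AP-1 word at both anchors, beside the same letters in reverse order, for short loops (left) and loops of 50 kb or more (right), with exact 95% intervals. Among short loops the AP-1 word runs from 34.4% in WT-only to 42.8% in STAG2-KD-only loops, and the reversed word is at 26.3 to 26.4%.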

How the data were processed

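H3K27ac HiChIP was performed by the authors on M14 cells cut with MboI. According to the study's methods and the submitters' processing notes, reads were aligned to hg19 with HiC-Pro, peaks were called with hichip-peaks and loops with FitHiChIP, in versions not given in the sources used here. The deposited values are positions, a chromosome, start and end per loop, with no count, score or significance. For its differential analysis the study describes dropping self-ligated loops, loops past a false discovery limit and loops well supported in 1 replicate but unseen in the other. Whether the deposited lists precede or follow these filters, and whether a list merges both replicates of a group, is not given in the sources used here. A fixed threshold can place a loop just inside one list and just outside the other. Replicates are named in the labels, and 1 list per group was used here.

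Of the loops, 1 STAG2-KD line did not lie on the 5 kb grid (76 kb, not a short loop). Neither list held loops on the X or Y chromosome. Anchors were annotated with GENCODE 44 lifted to GRCh37, and genes were counted by symbol over autosomal protein-coding genes. Shares carry exact Clopper-Pearson intervals (scipy 1.17.1, Python 3.11.15, numpy 2.4.6, pandas 2.3.3, matplotlib 3.10.9). The counting was tested on simulated data. Genes named are the 5 per set with the most short loops at a transcript start and the 3 per set with the most loops with both anchors in the gene. The 3 top anchors and 3 top windows of 500 kb per set, and the 3 windows each with the largest STAG2-KD excess and deficit, were named as well. Per gene list, up to 4 members with the most loops were named, with members in 1 list alone where 5 or fewer, and IRF9. Other genes named were chosen after their values were seen: the remaining MITF, OAS, STAT2, IFNAR2, TYK2, SOX10 and TFAP2A values and the partners of loops. The loops examined and the gene lists were chosen with earlier results of these data known. The reversed AP-1 letters and the split by transcript starts and GC content were added after seeing the data. Alternatives were anchors matched within 1 or 2 bins, the earlier 50% of lines, other definitions of promoters and genes, other density windows, and leaving out chromosome 19 or the 20 kb step.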

Additional observations from a re-analysis of the deposited data

How the results depend on the processing

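No paired analysis was possible because only 1 list stands for a group, so replicates could be neither paired nor left out. Of 131 values recomputed under an alternative, 69 counted as the same, 61 as moved and 1 changed sign, and the cause was not tested. A percentage counted as the same within the 95% interval of its main value, and a difference or a count within 1.5 times of it.

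Without the 20 kb step, STAG2-KD-only minus WT-only short loops went from 258 to -40, and the STAG2-KD-only part of private loops to 49.7%. Shared loops were then 42.0% of WT and 42.3% of STAG2-KD short loops, 7.43 and 4.00 points above longer loops (12.4 and 7.07 with it). Private loops with both anchors in the other list were 35.4% (WT-only) and 32.8% (STAG2-KD-only), with neither 13.2% and 15.5%. Starts of different genes were joined by 23.2% of shared, 14.9% (13.6 to 16.3) of WT-only and 12.9% (11.7 to 14.2) of the STAG2-KD-only loops. Of shared loops, 32.1% had starts at both anchors. Both anchors lay in 1 gene in 37.7% of shared, 40.8% (39.01 to 42.6) of WT-only and 43.2% (41.4 to 45.01) of the STAG2-KD-only loops. For each kind of contact the WT-only and STAG2-KD-only intervals then overlap, which they do not with the 20 kb step. AP-1 letters were in 62.7% of shared anchors, and the CTCF core share of STAG2-KD-only minus WT-only anchors was -1.29 points, from -2.12 with it.

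With anchors matched within 1 bin, the shared part was 52.7% in WT and 51.1% in STAG2-KD, and private loops had both anchors listed elsewhere in 45.01% (WT-only) and 40.1% (STAG2-KD-only) and neither in 11.6% and 14.4%. Within 2 bins these values were 58.5%, 57.2%, 49.3%, 45.3%, 11.3% and 14.1%. For the earlier 50% of lines of each list, whose order has no stated meaning, 42.4% and 40.5% were shared, the STAG2-KD excess over longer loops was 3.84 points, and private loops had both of their anchors in the opposite list in 23.0% and 23.4% and neither in 25.1% and 25.7%.

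With starts within 5 kb of an anchor, 50.7% of shared, 43.2% of WT-only and 42.2% of the STAG2-KD-only loops had starts at both, and histone genes with a short loop numbered 50 in WT and 55 in STAG2-KD. With protein-coding starts alone the values were 24.2%, 16.6% and 15.3%. Adding long noncoding RNA genes gave 25.8%, 17.9% and 15.5% joining starts of different genes and 43.2%, 46.5% and 49.2% within 1 gene. Without chromosome 19, 28.5% of shared and 20.4% of WT-only loops had starts at both, 18.7%, 12.8% and 10.7% joined different genes, and 48.7%, 41.5% and 41.6% lay above the median gene density. In a density window of 100 kb these last were 46.0%, 38.0% and 37.6%. The lists give positions alone, so depth and the strength of a loop could not be weighed.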
